A study of Mus musculus with 16 samples.

Results

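B16-BL6 is a mouse melanoma line, grown here as tumours in C57BL/6J mice. 5-Aminolevulinic acid (ALA) is the first precursor of heme, and cells that take it up make protoporphyrin IX, a photosensitiser that accumulates in many tumours. The comparison was between tumours given ALA and then X-ray and tumours given X-ray alone, and it addresses what ALA adds to fractionated irradiation. It used 8 of the 16 one-colour Agilent arrays of the study. The ALA plus X-ray group had 4 tumours of 8-week-old male C57BL/6J mice that received 50 mg per kg ALA locally before fractionated X-ray, and the X-ray group had 4 tumours of mice of the same strain, sex and age that received X-ray without ALA. The other arrays were 4 tumours given 50 mg per kg ALA without X-ray and 4 untreated controls. The X-ray dose, the number of fractions and the time from the last fraction to sampling are not given in the sources used here. The labels describe each sample as a tumour preparation from a mouse and number no animals, so the p-values measure the spread between these preparations. For single genes that spread was pooled over all 4 groups in the main fit. In whole tumours, fewer cells of a type and less RNA per cell cannot be told apart.

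A transplanted melanoma contains the tumour cells and host cells that enter it, among them macrophages, T cells, endothelial cells and fibroblasts. Tumour macrophages clear dead cells, make complement C1q and cathepsins, and show peptides to T cells on major histocompatibility complex (MHC) molecules. Interferons switch on a set of antiviral and antigen-presenting genes in tumour and host cells alike.

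Values are log2 signals minus the log2 of the array's own 75th percentile, so 0 stands for that percentile, and differences are ALA plus X-ray minus X-ray in log2 units with their standard error (SE). Tests are from limma over all 16 arrays with Benjamini-Hochberg adjustment over 15416 genes, and a gene passed at an adjusted p under 0.05. All 18 tested genes of the melanocyte pigmentation list were well above background on all 8 arrays, with a mean level of the list of 3.79 to 4.16 in ALA plus X-ray tumours and 3.81 to 4.07 in X-ray tumours. The 75th percentile of the signal was 366 to 521 in ALA plus X-ray arrays and 224 to 478 in X-ray arrays (exact permutation test, two-sided p = 0.114). Spots well above background made up 48.7% to 53.4% in ALA plus X-ray arrays and 47.6% to 50.5% in X-ray arrays (exact permutation test, two-sided p = 0.0571; the smallest p that 4 against 4 arrays allow is 0.0286). No spot was saturated. Each of the 4 slides held 1 array of each group, and the groups took the same position on every slide, so position and group cannot be told apart.

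On the first slide both tumours stood apart from their groups. The ALA plus X-ray tumour of replicate 1 had a mean correlation of 0.946 with the other 3 of its group, against 0.952 to 0.972 for those 3, and the X-ray tumour of replicate 1 had 0.955, against 0.966 to 0.974 for its group. Immune genes were low in the first of these tumours and high in the second, against the direction of the other slides, as for Ptprc, the pan-leukocyte antigen CD45, at −0.95 on slide 1 and 3.51 to 5.91 on the others. Other genes kept the direction of their group there, as for Tenm4, a protein of cell contacts, at −1.47 on slide 1 and −3.89 to −2.29 on the others, and Ndrg1, a hypoxia-induced gene, at −1.73 and −0.85 to −0.66. Uox was well above background in the ALA plus X-ray tumour of slide 1 and not in the X-ray tumour, and Olfr533 the reverse, as on the other slides. Tenm4, Uox and Olfr533 were named by a rule that requires groups without overlap, so their direction on slide 1 followed from that choice. Ndrg1 was named because it passed, in a fit that includes slide 1, which favours its direction there. The labels were kept as given. Whether the 2 tumours were exchanged was not tested, and an exchange would alter the group means and calls given here. Results are therefore also given within each slide or without the first slide.

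Of 15416 genes, 319 passed, 2.07% of those tested: 201 were higher in ALA plus X-ray tumours (1.3%) and 118 were lower (0.765%). Among them, 166 rose and 34 fell by at least 2-fold. The 12 largest rises include the secreted proteins Sfrp2, Rbp4 and Gas6, the adhesion molecule Vcam1 and cathepsin S. The 12 largest falls include the adhesion genes Tenm4, Negr1 and Cdh13 and the ephrin receptor Epha3. Over all genes the median difference was −0.08, and 40.4% of genes lay above 0. The array values of the groups did not overlap for 420 genes higher in ALA plus X-ray (2.72%) and 566 lower (3.67%), among them 124 of the 201 that rose and 113 of the 118 that fell. An unadjusted p under 0.05 was found for 1573 higher and 1995 lower genes, 3568 of 15416 together. Counts of list members at that threshold, given below, stand against these. Fitted to the 8 compared arrays alone, the same differences gave 1 gene that passed, so the 319 rest on spread estimated with the unirradiated tumours included. Those tumours varied less within their groups: the per-gene spread (standard deviation, log2, median over genes) was 0.215 with ALA and 0.194 in controls. In ALA plus X-ray tumours it was 0.334 and in X-ray tumours 0.245. The parts of fewer arrays and of wider spread in this loss were not tested. The count of 319 also rested on single arrays. Without ALA plus X-ray replicate 1, 2, 3 or 4 it was 3136, 4, 3 or 7 genes, and without X-ray replicate 1, 2, 3 or 4 it was 1094, 9, 4 or 4 genes. With the first slide left out, an alternative chosen after seeing the data, 2984 genes passed, 1351 higher and 1633 lower, 316 of the 319 among them. Immune genes ran the other way on that slide, so leaving it out favours their calls. With slide as a block 324 genes passed, 199 of the 319 among them. All 319 kept their direction in every one of these fits, which their choice by p favours. Slide as a block and the 8 arrays alone cannot alter a direction. Of the named genes that passed, those whose call was lost with slide as a block are given below with the adjusted p of that fit. Members of a gene list are counted where they passed the background filter, which kept 23 of 24 macrophage and 41 of 41 interferon response genes, but 27 of 38 cytokine, 6 of 12 erythroid and 5 of 15 neutrophil genes.

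**Figure D1:**
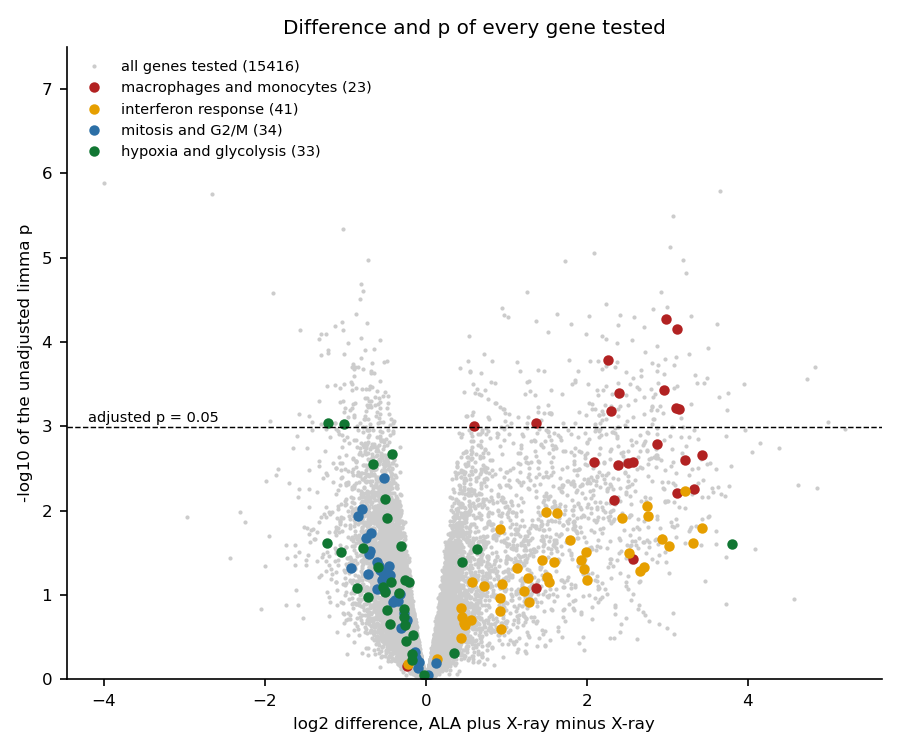
Log2 difference (ALA plus X-ray minus X-ray, horizontal) and −log10 of the unadjusted limma p (vertical) for the 15416 genes tested; the dashed line marks an adjusted p of 0.05. Of the macrophage genes (red) 22 of 23 lie right of 0 and 10 over the line, of the interferon response genes (orange) 40 of 41 lie right of 0 and none over the line, of the mitosis genes (blue) 32 of 34 lie left of 0 and none over the line, and of the hypoxia and glycolysis genes (green) 2 lie left and over it.

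Sfrp2 and Rbp4 had the largest rises. Sfrp2, a secreted modulator of Wnt signalling, stood at −3.02, 1.09, −1.09 and 1.82 in ALA plus X-ray tumours, against −3.48, −5.81, −6.35 and −5.55 in X-ray tumours, where 1 of 4 arrays was well above background. It rose by 5.00 ± 1.20 (adjusted p = 0.0473, and 0.0634 with slide as a block), and the 2 tumours of the first slide differed by 0.46. Rbp4, the plasma carrier of retinol, stood at −0.13, −0.43, −1.61 and 0.72 in ALA plus X-ray tumours, against −2.51, −5.90, −6.37 and −5.61 in X-ray tumours, where 1 of 4 arrays was well above background. It rose by 4.73 ± 0.99 (adjusted p = 0.0372), by 2.38 on the first slide and 4.76 to 6.33 on the others. The size of either rise depends in part on the background of the X-ray arrays. For both genes every ALA plus X-ray value was above every X-ray value, which the rule that named the largest rises requires.

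Vcam1, an adhesion molecule on activated endothelium that leukocytes bind, rose by 3.95 ± 0.84 (adjusted p = 0.0372, and 0.0524 with slide as a block), with −1.05, −0.38, 0.20 and 0.26 in ALA plus X-ray tumours against −1.87, −4.73, −4.69 and −5.49 in X-ray tumours. The tumour of X-ray replicate 1 was the highest of its group by a wide margin. It lay below all ALA plus X-ray tumours, which the rule that named the largest rises requires. Pla2g7, an enzyme that inactivates platelet-activating factor, rose by 3.29 ± 0.58, and Tlr7, an endosomal sensor of single-stranded RNA, by 3.23 ± 0.51. Gas6, a ligand of the receptors Axl, Mertk and Tyro3 through which macrophages bind dying cells, rose by 3.18 ± 0.73, with 2.05, 4.52, 4.74 and 4.81 in ALA plus X-ray tumours against 1.39, 1.76, 0.39 and −0.14 in X-ray tumours. Wfdc17, a small secreted protein of activated mouse macrophages, rose by 3.50 ± 0.73, and Nxpe5 by 3.37 ± 0.71. The adjusted p of Pla2g7, Tlr7, Gas6, Wfdc17 and Nxpe5 lay between 0.0215 and 0.0429, and with slide as a block Nxpe5 had 0.0504. Vcam1, Tlr7 and Nxpe5 were well above background on 1 of 4 X-ray arrays and Pla2g7 on 2. The sizes of these 4 rises depend in part on background.

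Of the 201 genes that rose, 31 were not well above background on any X-ray array, so that only a lower bound of their fold can be given. Uox, the urate oxidase that rodents express mainly in liver, had the smallest p of all rises. It stood at −1.56, −1.91, −3.00 and −2.68 in ALA plus X-ray tumours and was not well above background in X-ray tumours, at −5.77, −5.91, −6.48 and −5.62. It was at least 12.0-fold higher in ALA plus X-ray tumours (adjusted p = 0.00898). It was higher on each of the 4 slides, which the rule that named it requires. Tecrl was at least 8.38-fold higher (adjusted p = 0.0125), Neurl3, a ubiquitin ligase, at least 9.19-fold (adjusted p = 0.0168) and Otulinl, a relative of the deubiquitinase OTULIN, at least 8.18-fold (adjusted p = 0.0168). Tecrl passed the background filter through the ALA plus X-ray arrays alone, so the filter favours its direction. A further Neurl3 probe differed by 0.45 ± 0.57 and did not pass (adjusted p = 0.661). Fli1, an ETS transcription factor of blood and endothelial cells, rose by 2.09 ± 0.31 (adjusted p = 0.0168), with −1.28 to 0.11 in ALA plus X-ray tumours against −3.02 to −1.99 in X-ray tumours, and its other probe by 1.19 ± 0.48 (adjusted p = 0.171).

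**Figure D2:**
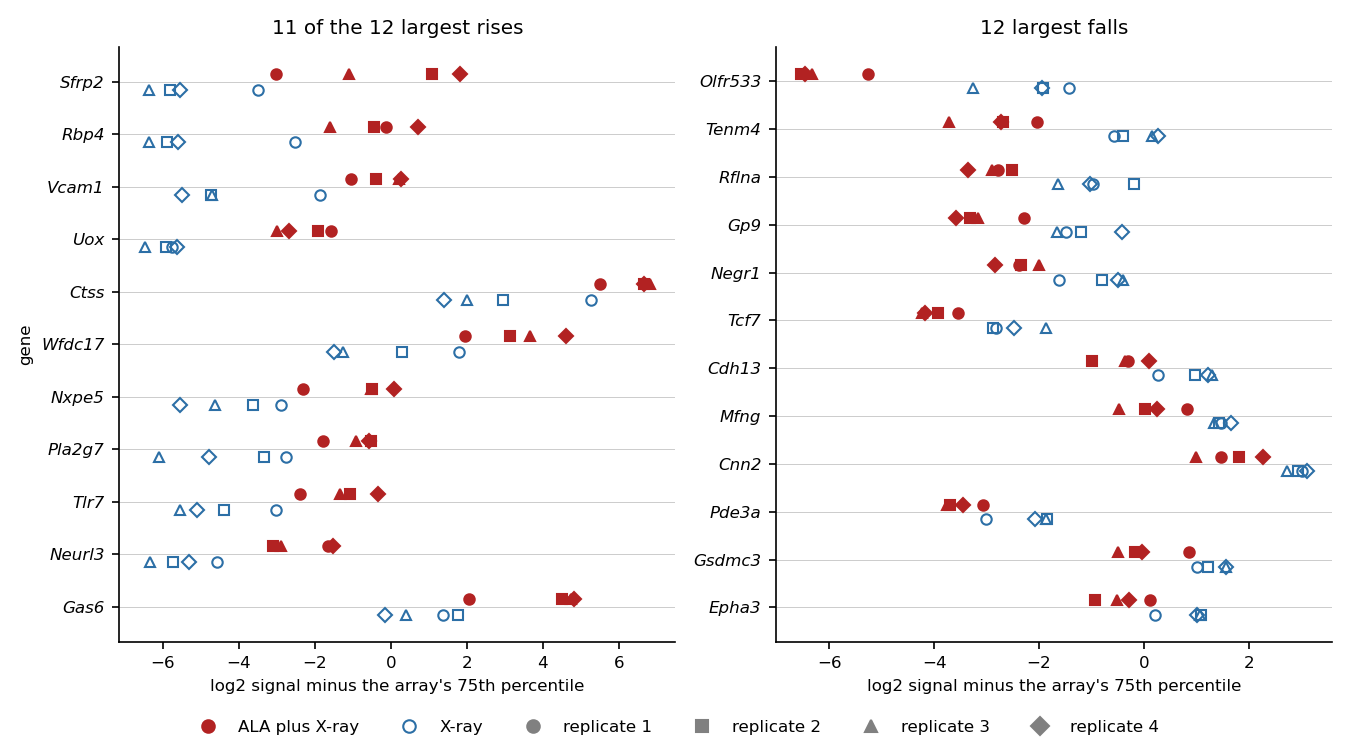
Log2 signal relative to the array's 75th percentile (horizontal) on each of the 8 arrays for 11 of the 12 largest rises (left panel) and the 12 largest falls (right panel); filled red symbols are ALA plus X-ray, open blue symbols X-ray, and the symbol shape gives the replicate. In each gene the red and blue symbols do not overlap, which the rule that named these genes requires. In the left panel replicate 1 (circles) of the 2 groups differs least of the 4 slides in 9 of 11 genes.

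Among the markers of macrophages and monocytes, 10 of 23 rose and 0 fell, against 1.3% and 0.765% of all genes, and 22 of 23 lay above 0 with a median of 2.57. Trem2, a lipid receptor of tumour macrophages, stood at 2.49, 3.99, 4.20 and 4.11 in ALA plus X-ray tumours, against 2.04, 1.02, 0.18 and −0.41 in X-ray tumours, and rose by 2.99 ± 0.53 (adjusted p = 0.0267). Its groups did not overlap, although on the first slide they differed by 0.45. Lyz2, lysozyme, rose by 2.27 ± 0.45 (adjusted p = 0.0342), and Ms4a7, a membrane protein of macrophages, by 2.96 ± 0.64 (adjusted p = 0.0375). Adgre1, which encodes the macrophage marker F4/80, rose by 3.14 ± 0.72 (adjusted p = 0.0429, and 0.0547 with slide as a block), with 1.67, 3.61, 3.88 and 3.98 in ALA plus X-ray tumours against 1.73, 0.68, 0.06 and −1.89 in X-ray tumours. Its groups overlapped through the first slide alone. Csf1r, the receptor for the macrophage growth factor CSF1, was higher by 2.34 ± 0.75 without passing (adjusted p = 0.0987). Spi1, the gene of the myeloid transcription factor PU.1, was well above background on 2 of 4 arrays in each group and differed by −0.23 ± 0.58 (adjusted p = 0.836).

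The median over the 23 macrophage genes was −0.47 on slide 1, 2.75 on slide 2, 3.59 on slide 3 and 4.69 on slide 4. Without the first slide it was 3.83, and 22 of the 23 passed as higher, against 1351 of all 15416 genes. Of the 11 tested pan-leukocyte genes, which mark blood-derived cells of any kind, 4 rose (Vav1, Cd53, Tyrobp and Laptm5, by 2.13 to 2.95) and 0 fell, with a median of 2.23. With slide as a block none of the 4 passed (adjusted p = 0.0545, 0.0634, 0.0607 and 0.059). Ptprc was higher by 3.18 ± 0.80 with an adjusted p of 0.0516. It stood at −0.29, 1.58, 1.65 and 2.13 in ALA plus X-ray tumours, against 0.66, −1.93, −2.59 and −3.78 in X-ray tumours, so its groups overlapped through the tumour of X-ray replicate 1. With the pan-leukocyte level of each array as a covariate, also chosen after seeing the data, limma called 0 genes, with 788 at an unadjusted p under 0.05. That level averaged 1.03 in ALA plus X-ray tumours and −1.16 in X-ray tumours, so the covariate carries part of the comparison itself.

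**Figure D3:**
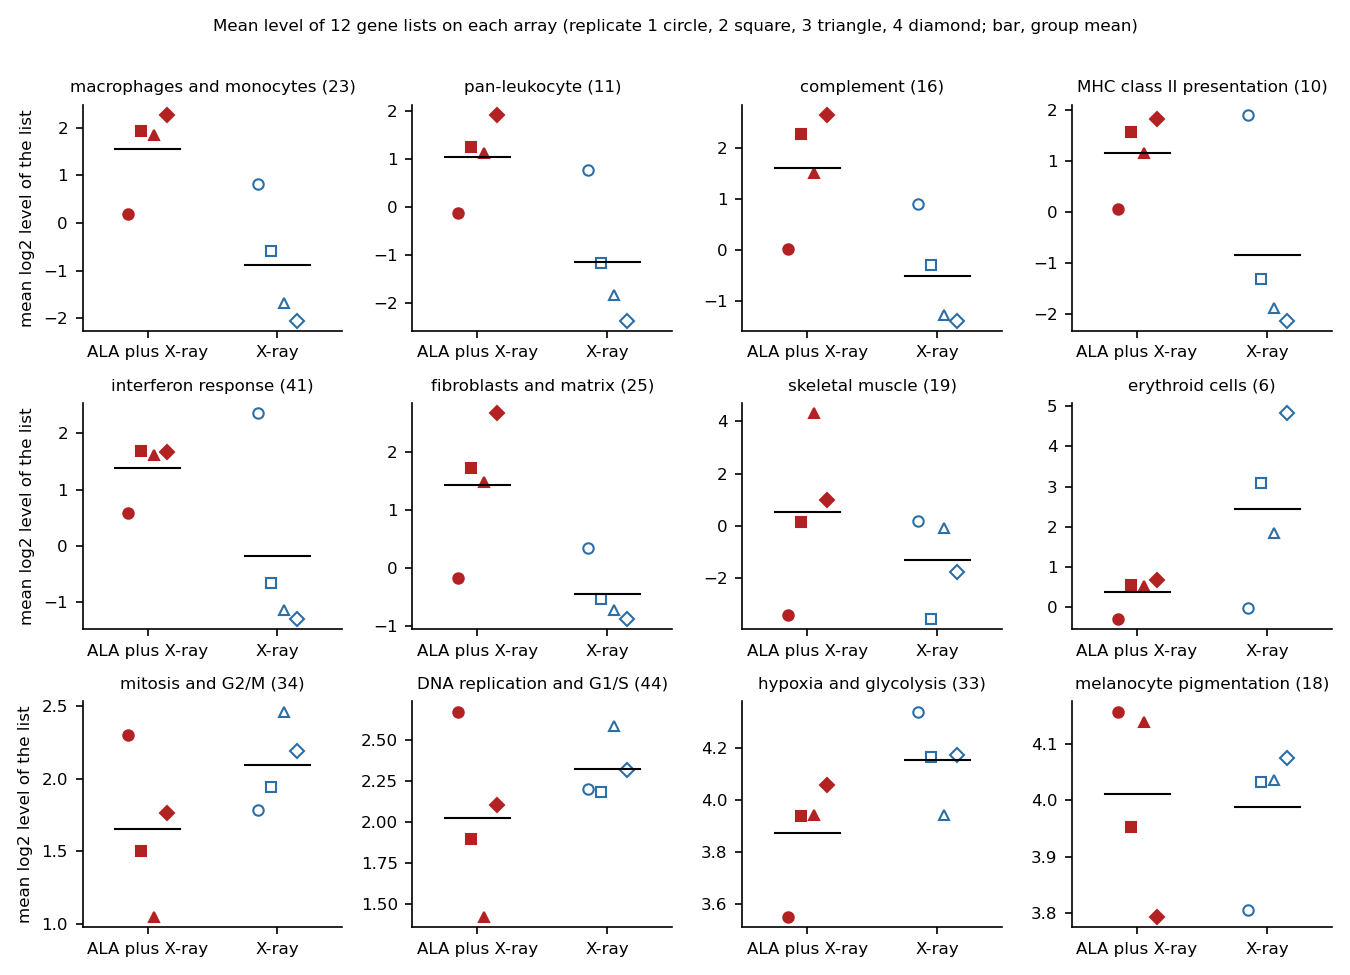
Mean log2 level of 12 gene lists on each array (vertical axes differ between panels), ALA plus X-ray left in filled red and X-ray right in open blue; the bar is the group mean, the symbol shape the replicate, and the number of genes tested stands after the list's name. In the macrophage panel the ALA plus X-ray tumours lie at 0.18, 1.92, 1.85 and 2.26 and the X-ray tumours at 0.82, −0.59, −1.68 and −2.05, and replicate 1 (circle) breaks the separation in the 6 immune and fibroblast panels.

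Complement genes moved with the macrophage markers. Of 16 tested, 4 rose and 0 fell, with a median of 2.32 and all 16 above 0. C1qc and C1qb, chains of the initiating protein C1q that macrophages make and that also stand in the macrophage list, rose by 3.11 ± 0.71 (adjusted p = 0.0429) and 2.30 ± 0.53 (adjusted p = 0.0432). Cfp, properdin, which stabilises the convertase of the alternative pathway, rose by 2.17 ± 0.52 (adjusted p = 0.0473). With slide as a block C1qc and C1qb had an adjusted p of 0.0545 each and Cfp 0.0683. C1qc stood at 3.02, 4.48, 4.65 and 4.94 in ALA plus X-ray tumours, against 3.02, 1.66, 0.77 and −0.81 in X-ray tumours, and the pair on slide 1 was equal. The median of the list was −0.68 on slide 1 and 2.78 to 4.41 on the others.

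In the list of lysosomal and cathepsin genes 4 of 25 rose and 0 fell, and its median was 0.21. Ctss, cathepsin S, which cleaves the invariant chain so that MHC class II can take up peptide, stood at 5.50, 6.67, 6.82 and 6.66 in ALA plus X-ray tumours, against 5.27, 2.95, 2.01 and 1.40 in X-ray tumours. It rose by 3.50 ± 0.67 (adjusted p = 0.0324) and did not overlap between the groups, which the rule that named the largest rises requires. Ctsh rose by 1.69 ± 0.37 (adjusted p = 0.0387), Ctsl by 1.03 ± 0.24 (adjusted p = 0.0439) and the leukocyte gene Laptm5 by 2.23 ± 0.53 (adjusted p = 0.0456). With slide as a block their adjusted p was 0.0553, 0.0599 and 0.059. The rest of the list, which holds the lysosomal genes that most cells express, did not pass.

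The promoters of the macrophage genes often held the letters GAGGAA, the core that PU.1 is known to bind. The search read both strands of the 250 bases before and 50 after each gene's start, and the motif was added after the calls were known. It stood in 12 of 16 macrophage promoters in the RefSeq table (75%), in 63 of 149 promoters of genes that rose (42.3%) and in 25 of 85 of genes that fell (29.4%), against 26.8% of the 10139 promoters of tested genes and 28.3% of all 27025. The promoters of 3 genes that rose and hold the letters are shown, Trem2 and C1qc of the macrophage list and Ctss of the MHC class II and lysosomal lists, 5′ to 3′ on the gene's strand (RefSeq, GRCm38.p6), with GAGGAA, or TTCCTC where it lies on the other strand, in capitals.
Trem2 promoter, chr17:48346151-48346450, + strand: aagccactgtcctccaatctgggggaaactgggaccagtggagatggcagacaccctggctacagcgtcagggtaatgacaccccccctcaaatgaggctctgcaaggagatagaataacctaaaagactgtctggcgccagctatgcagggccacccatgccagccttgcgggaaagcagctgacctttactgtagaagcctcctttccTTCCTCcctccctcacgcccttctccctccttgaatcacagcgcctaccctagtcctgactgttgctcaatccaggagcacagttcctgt
Ctss promoter, chr3:95526536-95526835, + strand: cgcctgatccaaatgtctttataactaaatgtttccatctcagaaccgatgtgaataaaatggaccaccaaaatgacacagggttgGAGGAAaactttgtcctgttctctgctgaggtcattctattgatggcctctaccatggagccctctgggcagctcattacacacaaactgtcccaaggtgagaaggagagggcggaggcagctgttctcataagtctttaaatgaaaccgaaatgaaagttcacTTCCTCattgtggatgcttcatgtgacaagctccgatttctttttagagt
C1qc promoter, chr4:136892865-136893164, − strand: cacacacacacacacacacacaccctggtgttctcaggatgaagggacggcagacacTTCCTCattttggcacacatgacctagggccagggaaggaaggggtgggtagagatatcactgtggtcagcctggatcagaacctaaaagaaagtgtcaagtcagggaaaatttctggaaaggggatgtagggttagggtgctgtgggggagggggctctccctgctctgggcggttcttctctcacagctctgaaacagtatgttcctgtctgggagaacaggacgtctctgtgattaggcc
Trem2 and C1qc held 1 match each, on the other strand, and Ctss 2, 1 on each strand. The Sp1 letters GGGCGG were in 45.6% of promoters of genes that rose and 75.3% of those that fell, against 63.1% of tested genes. CCAAT, the NF-Y box, was in 36.9% and 36.5%, against 38.9%, and TTTGAA, the CHR element of cell cycle genes, in 16.8% and 9.41%, against 12% of tested genes. The E2F letters TTCCCGC were in 6.71% and 5.88%, against 8.32%, and TTGGCGC in 4.7% and 3.53%, against 4.29%. A match is a stretch of letters and no measure of binding.

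Interferon response genes were higher without any passing. Of 41 tested, 40 lay above 0 with a median of 1.49, while limma called 0 and 20 had an unadjusted p under 0.05 in the higher direction, against 1573 of all 15416 genes. Oasl2, an interferon-induced relative of the 2′,5′-oligoadenylate synthetases, stood at 0.57, 2.26, 2.21 and 2.31 in ALA plus X-ray tumours, against 2.45, −2.23, −2.69 and −3.07 in X-ray tumours (difference 3.22 ± 1.00, adjusted p = 0.0887). Ifit1, an inducible binder of foreign RNA, stood at −0.50, 1.09, 1.66 and 1.08 in ALA plus X-ray tumours, against 1.40, −0.42, −1.54 and −2.25 in X-ray tumours (difference 1.54 ± 0.79, adjusted p = 0.255). In each case the tumour of X-ray replicate 1 was above 3 or all 4 of the ALA plus X-ray tumours. Ifi44 differed by 2.75 ± 0.91 (adjusted p = 0.105). The list's median was −1.88 on slide 1, 1.95 on slide 2, 2.59 on slide 3 and 2.69 on slide 4. Without the first slide it was 2.51, and 38 of the 41 passed as higher, against 1351 of all 15416 genes. The first slide went against this list, so leaving it out favours these calls.

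H2-K1, a heavy chain of MHC class I, was the 1 of 19 class I genes that rose, by 2.91 ± 0.66 (adjusted p = 0.0429, and 0.0599 with slide as a block). It stood at 4.07, 6.13, 6.09 and 6.40 in ALA plus X-ray tumours, against 5.02, 2.39, 2.03 and 1.60 in X-ray tumours, so the first slide went the other way. Its 3 other probes differed by 1.40 to 3.08, and binding of related class I transcripts to these probes was not tested. Of 10 MHC class II presentation genes 1 rose, the cathepsin Ctss described above, and all 10 lay above 0 with a median of 2.14. On slide 1 the class II median was −2.18, and on the others 3.24 to 4.70.

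None of 27 cytokine and chemokine genes passed in limma, although 26 lay above 0 with a median of 1.83 and 15 had an unadjusted p under 0.05. Ccl8, a chemokine that attracts monocytes, was higher by 4.16 ± 1.07 (adjusted p = 0.0552). Il6 was at least 4.45-fold higher than in X-ray tumours, where it was not well above background (adjusted p = 0.0516). Il1b differed by 2.15 ± 1.16 (adjusted p = 0.279), with −5.35 in ALA plus X-ray replicate 1 and −0.74 to −0.34 in its group's other tumours, against −1.09 in X-ray replicate 1 and −5.58 to −4.28 in the others. Bcl2a1b, an anti-apoptotic BCL2 relative of leukocytes with near-identical copies in the mouse genome, was the 1 of 30 apoptosis regulators that rose, by 2.84 ± 0.67 (adjusted p = 0.0456, and 0.0604 with slide as a block).

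Markers of lymphocytes and granulocytes were sparse. Of 24 T and NK cell markers 12 passed the background filter, and 1 of these was well above background on all 8 arrays. Limma called 0 of the 12, with 6 at an unadjusted p under 0.05. Cd3e, a chain of the T cell receptor complex, was −4.37 to −2.73 in ALA plus X-ray tumours and −3.97 to −2.31 in X-ray tumours (difference −0.04 ± 0.57, adjusted p = 0.972). The NK and cytotoxic genes Klrd1 and Gzma were higher by 2.87 ± 0.99 (adjusted p = 0.116) and 2.55 ± 0.84 (adjusted p = 0.103). Klrd1 was well above background on 4 ALA plus X-ray arrays and Gzma on 3, and each on 1 X-ray array. The filter thus favours their direction, and their sizes depend in part on background. S100a8, a calcium-binding protein of neutrophils, differed by 2.58 ± 0.95 (adjusted p = 0.134), and Itgax, the dendritic cell and macrophage integrin CD11c, by 2.60 ± 0.77 (adjusted p = 0.0786). S100a8 was well above background on 3 ALA plus X-ray arrays and 1 X-ray array, and Itgax on 4 and 2.

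**Figure D4:**
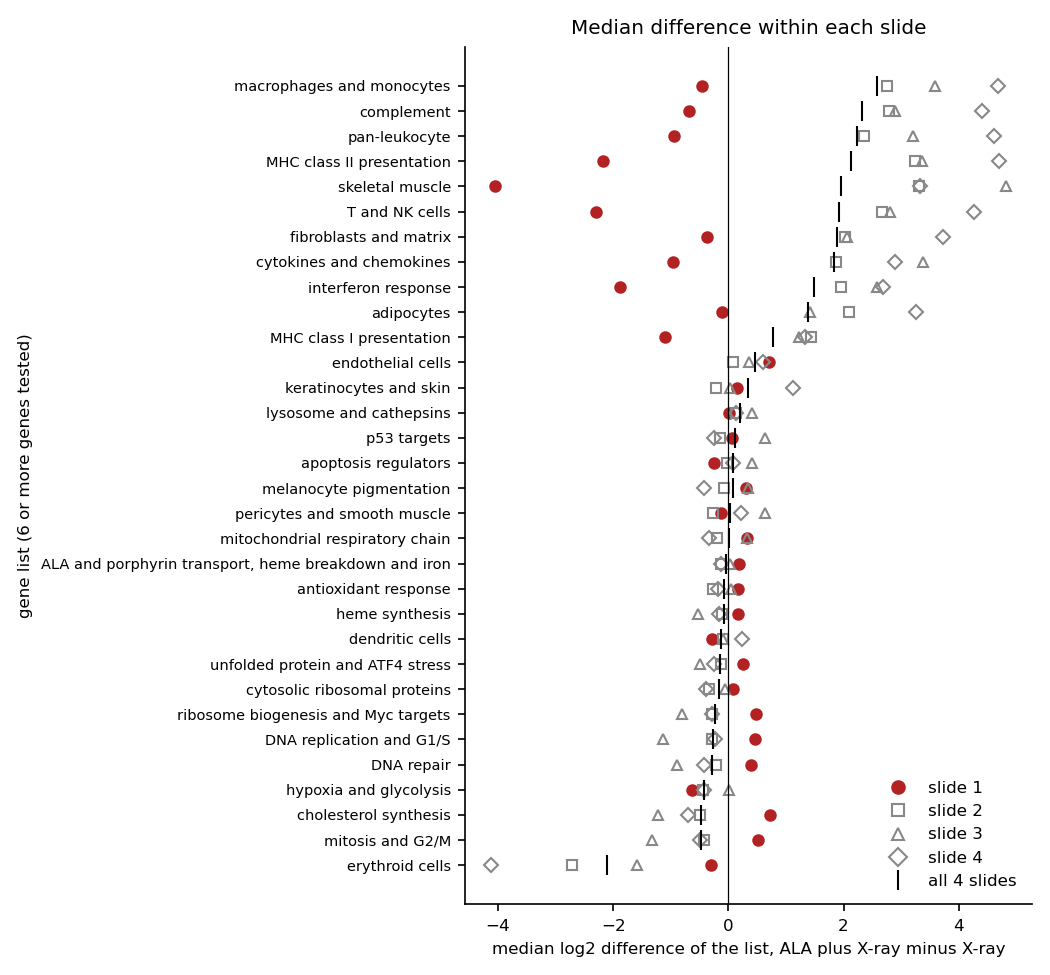
Median log2 difference (ALA plus X-ray minus X-ray) of each gene list with 6 or more tested genes within slide 1 (filled red) and slides 2 to 4 (open grey), and over all 4 slides (bar). Immune lists other than dendritic cells lie left of 0 on slide 1 and right of it on the other slides, as for interferon response at −1.88 against 1.95, 2.59 and 2.69, and the mitosis list lies at 0.52 against −0.42, −1.33 and −0.50.

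Of 25 fibroblast and matrix genes all lay above 0, with a median of 1.88, and 1 rose: Aspn, asporin, a small proteoglycan of the matrix, by 2.49 ± 0.51 (adjusted p = 0.0343). It stood at −2.70, −2.18, −1.43 and −0.33 in ALA plus X-ray tumours, against −4.11, −4.21, −3.33 and −4.96 in X-ray tumours, where 1 of 4 arrays was well above background. Col1a1, a chain of type I collagen, was higher on every ALA plus X-ray array, at 4.80, 6.02, 5.27 and 6.75 against 4.56, 4.09, 3.70 and 3.87 in X-ray tumours, without passing (difference 1.66 ± 0.63, adjusted p = 0.146). Another Col1a1 probe differed by 2.52 ± 0.51 (adjusted p = 0.0385 over all probes). Of 19 endothelial genes limma called 0, with 7 at an unadjusted p under 0.05, and 15 lay above 0 with a median of 0.47. Mmrn2 differed by 0.68 ± 0.18 (adjusted p = 0.0641), Sox17 by 1.58 ± 0.45 (adjusted p = 0.0716) and Pecam1, the marker CD31, by 0.59 ± 0.30 (adjusted p = 0.247). Lpl, lipoprotein lipase, of fat and macrophages, rose by 2.15 ± 0.50 (adjusted p = 0.0446, and 0.0508 with slide as a block), the 1 of 13 adipocyte genes to do so.

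Skeletal muscle and red cell transcripts varied between single tumours. The mean level of 19 muscle genes was −3.39, 0.17, 4.30 and 1.00 in ALA plus X-ray tumours, against 0.17, −3.54, −0.07 and −1.77 in X-ray tumours, and limma called 0 of them, with 0 at an unadjusted p under 0.05. With this level as a covariate, an alternative chosen after seeing the data, 76 genes passed, 70 of the 319 among them. All 6 tested erythroid genes lay below 0 with a median of −2.10, and 0 passed in limma, with 5 at an unadjusted p under 0.05. Alas2, the first enzyme of heme synthesis in red cell precursors, stood at −2.59, −1.13, −1.87 and −1.06 in ALA plus X-ray tumours, against −1.81, 2.21, 0.61 and 4.22 in X-ray tumours (difference −2.97 ± 1.03, adjusted p = 0.116). Hba-a2, an alpha globin gene with a near-identical copy, differed by −2.31 ± 0.78 (adjusted p = 0.112), with 3.21 to 4.41 in ALA plus X-ray tumours against 3.50 to 8.56 in X-ray tumours. The part of blood and muscle content in the other differences was not tested beyond the covariate fit.

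Genes of heme synthesis, the pathway that ALA enters, did not pass. Of 9 tested, limma called 0, with 2 at an unadjusted p under 0.05, and the median was −0.08, as over all genes. Alas1, the rate-limiting enzyme outside red cells, was 3.05 to 3.52 in ALA plus X-ray tumours and 2.20 to 3.22 in X-ray tumours (difference 0.48 ± 0.35, adjusted p = 0.432). Fech, which inserts iron into protoporphyrin IX, differed by 0.46 ± 0.23 (adjusted p = 0.236), with 3.05 in ALA plus X-ray replicate 3 and 1.61 to 2.10 on the other 7 arrays. A further Fech probe went the other way, at −0.17 ± 0.18 (adjusted p = 0.598). Ppox, protoporphyrinogen oxidase, differed by −0.57 ± 0.23 (adjusted p = 0.174).

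Among 24 genes of ALA and porphyrin transport, heme breakdown and iron, limma called 0, with 7 at an unadjusted p under 0.05. Of all 15416 genes 3568 were under that threshold. Abcg2, which exports porphyrins, was −1.12, −0.93, 0.01 and 0.14 in ALA plus X-ray tumours, against −1.33, −1.36, −1.58 and −2.22 in X-ray tumours, without overlap (difference 1.15 ± 0.32, adjusted p = 0.0662). Flvcr1, a heme exporter, differed by 0.47 ± 0.15 (adjusted p = 0.0876). Hmox1, the inducible heme oxygenase and a marker of oxidative stress, differed by −0.22 ± 0.39 (adjusted p = 0.762). Of 30 antioxidant genes limma called 0, with 6 at an unadjusted p under 0.05, and the metallothionein Mt1 came nearest at −0.56 ± 0.15 (adjusted p = 0.0621).

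No p53 target passed. Of 35 tested, limma called 0, with 8 at an unadjusted p under 0.05, against 3568 of all 15416 genes, and the median was 0.11. Cdkn1a, the p53-induced cell cycle inhibitor p21, was 3.62, 3.50, 3.79 and 3.02 in ALA plus X-ray tumours, against 4.13, 3.50, 3.13 and 3.40 in X-ray tumours (difference −0.06 ± 0.21, adjusted p = 0.883). Mdm2, the ubiquitin ligase of p53, differed by 0.22 ± 0.18 (adjusted p = 0.499), and Ddit4, an inhibitor of mTOR signalling, by −0.70 ± 0.23 (adjusted p = 0.0996). The death receptor gene Fas differed by 2.13 ± 0.71 (adjusted p = 0.106) and, like the immune genes, went the other way on slide 1.

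Proliferation genes were lower without passing. In the mitosis list 32 of 34 genes lay below 0 (median −0.48), in the replication list 41 of 44 (median −0.26) and in the repair list 28 of 34 (median −0.29). Over all genes 40.4% lay above 0 and the median was −0.08. Limma called 0 in each list, with 11, 5 and 10 lower genes at an unadjusted p under 0.05, and 1 repair gene higher. Of all 15416 genes 1995 were lower at that threshold and 1573 higher, so the replication share was no larger than that of all genes. Mki67, the proliferation marker, was 5.01, 3.74, 3.02 and 4.54 in ALA plus X-ray tumours, against 4.21, 4.50, 5.11 and 4.93 in X-ray tumours (difference −0.61 ± 0.33, adjusted p = 0.281). In all 3 lists ALA plus X-ray replicate 1 had the highest mean level of its group and replicate 3 the lowest. Nusap1, a spindle protein, differed by −0.52 ± 0.15 (adjusted p = 0.0764), Ube2c, of the anaphase-promoting complex pathway, by −0.80 ± 0.27 (adjusted p = 0.107), and Ccnb1, cyclin B1, by −0.31 ± 0.26 (adjusted p = 0.486). Tk1, E2f1 and the sliding clamp gene Pcna differed by −0.85 ± 0.33, −0.68 ± 0.27 and −0.19 ± 0.15 (adjusted p = 0.148 to 0.467). Of the repair genes, the helicase gene Blm differed by −0.67 ± 0.21 (adjusted p = 0.0889) and Brca1 by 0.54 ± 0.17 (adjusted p = 0.093). Without the first slide 21 mitosis, 12 replication and 13 repair genes passed, all of them lower, against 1633 of all 15416 genes. The medians of these lists were above 0 on the first slide, so leaving it out favours these calls.

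Myc, the growth-promoting transcription factor, fell by 0.80 ± 0.17 on the log2 scale (adjusted p = 0.0375). It stood at 3.39, 2.90, 2.85 and 3.58 in ALA plus X-ray tumours, against 3.62, 3.95, 4.22 and 4.10 in X-ray tumours, without overlap. It was the 1 of 30 ribosome biogenesis and Myc target genes to pass, and 27 of the 30 lay below 0 with a median of −0.23. Sqle, squalene epoxidase, differed by −0.62 ± 0.16 (adjusted p = 0.0604), and of 23 cholesterol synthesis genes limma called 0, with 7 at an unadjusted p under 0.05.

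In the hypoxia and glycolysis list 2 of 33 genes fell and 0 rose, and 29 of 33 lay below 0 with a median of −0.43. Aldoc, a glycolytic aldolase, stood at 3.06, 2.44, 1.70 and 2.29 in ALA plus X-ray tumours, against 3.82, 3.46, 3.55 and 3.53 in X-ray tumours, and fell by 1.22 ± 0.29 on the log2 scale (adjusted p = 0.0473). Ndrg1, a hypoxia-induced stress gene, stood at 2.94, 3.75, 3.64 and 3.91 in ALA plus X-ray tumours, against 4.67, 4.59, 4.30 and 4.75 in X-ray tumours, and fell by 1.02 ± 0.25 on the log2 scale (adjusted p = 0.0473, and 0.0597 with slide as a block). Neither gene overlapped between the groups, and both were lower on all 4 slides. The list's median was −0.63 on slide 1, −0.44 on slide 2, 0.02 on slide 3 and −0.42 on slide 4, so unlike the immune lists it did not turn on the first slide.

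The largest fall was in Olfr533, an olfactory receptor gene. Its probe, shown because the result rests on these 60 bases alone, lies at chr7:147652712-147652771 (mm9, the array annotation).
Olfr533 probe: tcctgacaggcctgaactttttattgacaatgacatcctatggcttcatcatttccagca
Olfr533 was not well above background in ALA plus X-ray tumours, at −5.26, −6.54, −6.34 and −6.46, and stood at −1.44, −1.93, −3.27 and −1.94 in X-ray tumours. It was at least 14.6-fold lower in ALA plus X-ray tumours (adjusted p = 0.00898). It was lower on each of the 4 slides, which the rule that named it requires. In the tumours without X-ray it was −6.35 to −4.43 with ALA and −6.21 to −4.19 in controls, so the X-ray tumours stood above the 3 other groups. Olfr533 passed the background filter through the X-ray arrays alone, so the filter favours this pattern. Binding of other olfactory receptor transcripts to this probe was not tested.

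Tenm4, a teneurin, a transmembrane protein of cell contacts, stood at −2.03, −2.68, −3.73 and −2.73 in ALA plus X-ray tumours, against −0.56, −0.39, 0.16 and 0.26 in X-ray tumours. It fell by 2.66 ± 0.34 on the log2 scale (adjusted p = 0.00898), and its other probe fell by 1.96 ± 0.36 (adjusted p = 0.0303 over all probes). Gp9, a subunit of the platelet receptor for von Willebrand factor, stood at −2.29, −3.32, −3.16 and −3.58 in ALA plus X-ray tumours, against −1.48, −1.21, −1.65 and −0.42 in X-ray tumours, and fell by 1.90 ± 0.31 (adjusted p = 0.0255). It was the 1 of 4 platelet genes that fell. Of the 4, 3 lay below 0, while Pf4 was higher by 2.03 ± 0.51 without passing (adjusted p = 0.0533). Adhesion and guidance genes among the largest falls were Negr1, a neuronal adhesion molecule, which fell by 1.57 ± 0.29 on the log2 scale, Cdh13, the anchored cadherin T-cadherin, by 1.33 ± 0.30, and the ephrin receptor Epha3 by 1.24 ± 0.23. Their adjusted p lay between 0.0274 and 0.0419.

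Other genes with the largest falls or the smallest p had varied roles. Tcf7, a Wnt effector of T cells and other tissues, fell by 1.45 ± 0.34 on the log2 scale, and its relative Tcf7l1 by 0.72 ± 0.11 (adjusted p = 0.0446 and 0.0168). Tcf7l1 stood at 2.40, 2.07, 2.07 and 2.24 in ALA plus X-ray tumours, against 2.76, 2.88, 3.09 and 2.91 in X-ray tumours. Mfng, a glycosyltransferase of Notch receptors, fell by 1.32 ± 0.25, the phosphodiesterase gene Pde3a by 1.30 ± 0.25, the gasdermin gene Gsdmc3 by 1.30 ± 0.24, and the actin-binding genes Rflna and Cnn2 by 1.93 ± 0.46 and 1.30 ± 0.31. The adjusted p of these 5 lay between 0.0279 and 0.0475. With slide as a block the adjusted p was 0.0553 for Tcf7, 0.0651 for Rflna and 0.0585 for Cnn2. Baiap2l1, a membrane-bending adaptor of the actin skeleton, fell by 1.03 ± 0.15 (adjusted p = 0.0141). All the falls named in this paragraph were lower in ALA plus X-ray on each of the 4 slides, which the rule that named them requires.

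Melanocyte genes did not pass. Of 18 tested, limma called 0, with 1 at an unadjusted p under 0.05, and the median was 0.07. Tyr, tyrosinase, was 0.05 to 0.73 in ALA plus X-ray tumours and −0.09 to 0.32 in X-ray tumours (difference 0.22 ± 0.20, adjusted p = 0.535). Mitf and Sox10, transcription factors of the lineage, differed by −0.48 ± 0.23 (adjusted p = 0.231) and −0.42 ± 0.16 (adjusted p = 0.144). A p that misses the threshold does not show that these levels were alike.

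Whether the difference that ALA made depended on irradiation was tested as ALA plus X-ray minus X-ray, less ALA minus control. In this test 190 genes passed (1.23%), 139 above 0 and 51 below. Without one of the 8 irradiated tumours this count was 1066 (ALA plus X-ray replicate 1), 763 (X-ray replicate 1) or 1 to 46 (any other), and with slide as a block it was 8. ALA without X-ray gave 0 calls against control in limma, with 963 genes at an unadjusted p under 0.05 and 0 calls with trend and robust moderation. Of the 201 genes that rose, 188 lay below 0 in ALA against control (93.5%), against 50.4% of all genes, and their median there was −0.64. The 2 differences share no arrays but come from the same 4 slides, where position and group cannot be told apart. Genes that vary together are no separate observations, so this share carries no test. Uox had the smallest p of this test (adjusted p = 0.0068), with −5.57, −5.52, −6.43 and −5.75 in ALA tumours against −4.86, −2.26, −3.38 and −4.33 in control tumours. It was not well above background on any X-ray or ALA array, so no size is given. Ms4a7 was −1.44, −0.44, −2.93 and −1.72 in ALA tumours, against 0.97, 1.39, 0.90 and 1.97 in control tumours, and its difference of differences was 5.90 (adjusted p = 0.0266). In the other direction, Epha1, an ephrin receptor, had −1.54, Pex5, the peroxisomal import receptor, −1.14, and Ptpn9, a tyrosine phosphatase, −0.97, each with an adjusted p of 0.0266. Epha1 was −1.84, −1.59, −1.85 and −0.96 in ALA plus X-ray tumours, against −0.86, −0.78, −0.54 and −0.39 in X-ray tumours, while it was −0.64, −0.96, −0.59 and −0.86 in ALA tumours against −1.31, −1.58, −1.23 and −1.43 in control tumours.

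**Figure D5:**
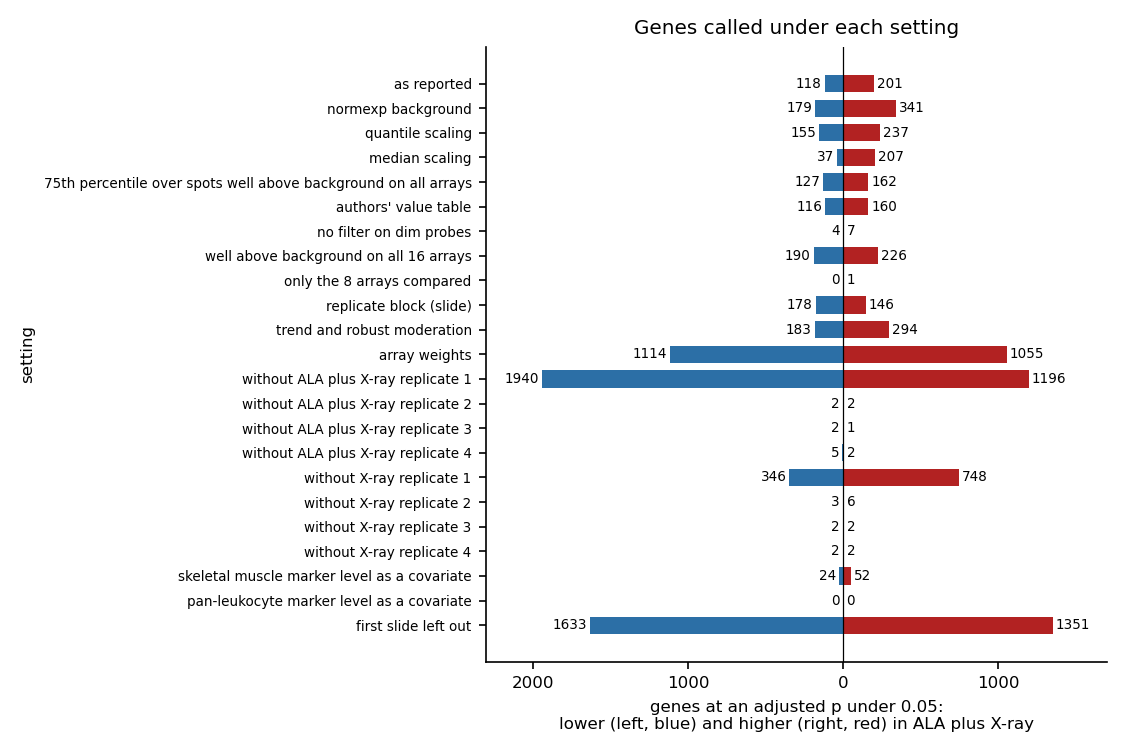
Number of genes at an adjusted p under 0.05 under each setting, lower in ALA plus X-ray to the left (blue) and higher to the right (red). The count is 319 as reported, 3136 and 1094 without ALA plus X-ray replicate 1 or X-ray replicate 1, and 3 to 9 without any other of the 8 arrays.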

How the data were processed

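Gene expression was measured on 1-colour Agilent arrays of 16 tumours, 4 per group. The deposited scanner files hold intensity on a linear scale, per the file headers: a processed signal, from which Agilent Feature Extraction 10.7.3.1 had removed background and spatial trend, with a mean signal and a background median per spot. The submitters' processing notes name version 9.5.3.1. Quality flags are other values, per the file headers. The deposited value table holds the authors' intensity; each column has a median of 31.881, and on the log2 scale it correlated at 0.9925 or more with the same array's processed signal. It served as an alternative.

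Of 43379 non-control spots (1639 control spots left out), flagged spots were dropped and spots of one of 41174 probes averaged; 39 probes with no usable spot on an array were left out. Names came from RefSeq by accession for 26876 probes, by symbol for 2894 and by older symbol for 351, and 11053 kept the file's name. The log2 processed signal minus the array's 75th percentile was fitted with limma 3.58.1 (R 4.3.3, data.table in version 1.17.8) to the 4 group means of 16 arrays (12 residual and 2.3 prior degrees of freedom). Probes well above background on at least 4 arrays were kept, and the brightest stood for its gene. On simulated data for ALA plus X-ray against X-ray with 15416 genes, 54% of changes of 1 and 86% of changes of 2 on the log2 scale were recovered, with 7 false calls. The simulation drew genes independently and gave each gene the same spread in all groups. It therefore does not give the error rate where genes vary together or groups differ in spread, as here. Fold bounds use, per array, the lowest signal well above background or the probe's own value if higher.

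Named genes are the 12 largest rises and falls among genes that passed, did not overlap between groups and were well above background on all 4 arrays of a group, the 5 of smallest p per direction, from each list up to 4 that passed per direction or 2 of smallest p, 17 fixed genes and 5 per direction of the interaction; clone and prediction names were left out. Not all of these are printed, and some are not reported here. A few members of lists are named outside this rule, chosen after their values were seen (Csf1r, Spi1, Pf4). Members and lists were chosen with earlier results of these data known, so lists get no test. The number of arrays limits the precision. Same-numbered arrays of the 2 groups correlated at −0.46, 0.15, 0.01 and −0.07 after group means were removed, so the numbers do not pair tumours; they are the slide numbers, and slide was fitted as a block. Figures were drawn with matplotlib 3.10.9.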

Additional observations from a re-analysis of the deposited data

Results flagged for a closer look

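In 14 of 190 groups of 4 arrays, those of the 93 genes examined and of 2 array measures, 1 array lay far from the other 3 (gap over range above Dixon's 95% critical value); chance gives about 1 in 20 groups.

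In ALA plus X-ray tumours, replicate 1 was low for Ctss (5.50, others 6.66 to 6.82), Gas6 (2.05, others 4.52 to 4.81), Otulinl (−3.72, others −2.17 to −1.88) and Trem2 (2.49, others 3.99 to 4.20). It was also low for Adgre1 (1.67, others 3.61 to 3.98) and H2-K1 (4.07, others 6.09 to 6.40). The same tumour was low for the interferon-induced Oasl2 (0.57, others 2.21 to 2.31) and Ifi44 (−3.87, others −1.20 to −0.95) and for the cytokine Il1b (−5.35, others −0.74 to −0.34). For Olfr533 it was the highest of 4 values that were not well above background (−5.26, others −6.54 to −6.34).

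In X-ray tumours, replicate 1 was high for Oasl2 (2.45, others −3.07 to −2.23) and low for Epha3 (0.21, others 1.01 to 1.09) and Sqle (3.41, others 3.78 to 3.83). ALA plus X-ray replicate 3 was low for Ppox (0.10, others 0.98 to 1.09). These values were not traced to a cause.

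For 40 of the 93 genes the ALA difference in irradiated tumours differed from that in unirradiated ones by limma's interaction test (adjusted p 0.0068 to 0.0493), against 1.23% of all genes tested. The choice of these genes favours that count, since 9 of the 40 were named for this test and most others for a large difference between ALA plus X-ray and X-ray, which is part of it. The values below are that difference of differences in log2 units, each over 4 tumours per group. Uox, Nxpe5, Pla2g7, Tlr7, Neurl3, Olfr533, Tecrl, Otulinl and Itgax were not well above background on any array of at least 1 of the 4 groups, so their values are fitted against background and are no measured sizes. The count behind this test changed with single arrays, as given under the processing.

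Among secreted, sensor and adhesion genes it was 6.62 for Rbp4, 5.50 for Vcam1, 5.77 for Uox, 5.46 for Wfdc17, 5.62 for Nxpe5, 4.16 for Pla2g7, 5.53 for Tlr7 and 5.36 for Gas6. For genes near background in X-ray tumours it was 3.51 for Neurl3, 3.52 for Tecrl and 4.67 for Otulinl, and for the ETS factor Fli1 it was 3.01. The macrophage genes had 4.93 for Trem2, 3.99 for Lyz2, 5.90 for Ms4a7 and 5.78 for Adgre1. Pan-leukocyte genes had 3.09 for Vav1, 4.33 for Tyrobp and 3.37 for Laptm5.

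Complement genes had 5.85 for C1qc and 4.02 for C1qb, and cathepsins 5.58 for Ctss and 2.38 for Ctsh. It was 6.63 for the chemokine gene Ccl8, 4.78 for Itgax, 4.16 for Bcl2a1b, 3.65 for the matrix gene Aspn and 3.59 for Lpl.

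Below 0 it was −3.60 for Olfr533, −2.21 for Tenm4, −2.37 for Gp9, −1.53 for Mfng, −2.04 for Cnn2 and −1.68 for Gsdmc3. The ephrin receptors Epha3 and Epha1 had −1.56 and −1.54, Baiap2l1 had −1.04, Ndrg1 −1.82, Ptpn9 −0.97 and Pex5 −1.14.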

How the results depend on the processing

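The 319 genes kept their direction under all 22 alternatives wherever they were measured. Their choice by p in this comparison favours that. The slide block, the 8 arrays alone and the trend and robust moderation leave the group differences unchanged, so they cannot alter a direction. The count of calls changed. It was 520 with a normexp background (offset 50), 11 without the filter on dim probes, 1 with the 8 compared arrays alone and 2169 with array weights. Leaving out one of the 8 arrays gave 3 to 3136 genes for the comparison and 1 to 1066 for the interaction, whose 190 genes became 40 without the filter and 2022 with array weights. Of the alternatives chosen after seeing the data, the skeletal muscle covariate gave 76 genes (4 for the interaction), the pan-leukocyte covariate 0 in limma (0 for the interaction, with 788 and 778 at an unadjusted p under 0.05) and leaving out the first slide 2984 (1332 for the interaction). The count stayed within 1.5 times of 319 with quantile scaling (392), median scaling (244), the 75th percentile over bright spots (289), the authors' table (276), a filter on all 16 arrays (416) and trend and robust moderation (477). Median scaling called 207 higher and 37 lower, 84.8% higher against 63% as reported. With the replicate block (slide) 324 genes passed, 146 higher and 178 lower, 199 of the 319 among them, and the interaction kept 8; of 51 named genes 20 lost their call under the block (adjusted p up to 0.0683), among them Sfrp2, Vcam1, Adgre1, C1qc, C1qb, H2-K1, Ndrg1 and Tcf7. Of the 51, 47, 48 and 46 lost it without ALA plus X-ray replicate 2, 3 or 4, 45, 47 and 47 without X-ray replicate 2, 3 or 4, and 0 without either replicate 1. With the 8 compared arrays alone 50 of the 51 lost it. The causes were not tested.

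Signs turned in genes that did not pass. With the pan-leukocyte covariate Oasl2 was −0.31, Ifi44 −0.18, Ifit1 −0.98, Il1b −1.47, Klrd1 −0.73, Alas1 −0.11, Mitf 0.0071, Ccnb1 0.0323 and Cd3e 0.10. Cdkn1a was 0.021 with normexp, 0.0897 without the first slide and −0.20 to 0.14 with single arrays left out. Cd3e was 0.0741 without the first slide and −0.29 to 0.32 with single arrays left out, and Hmox1 −0.55 to 0.0167. The covariate also turned the list medians of interferon response (−0.65), MHC class I (−0.37) and class II (−0.97), cytokines (−0.11), T and NK cells (−0.78) and skeletal muscle (−0.87), while those of macrophages (0.31), complement (0.23) and fibroblasts (0.17) stayed above 0. The macrophage, complement, hypoxia, mitosis and erythroid medians kept their sign under all 22. Of 34 further probes of 28 named genes, 33 had the direction of the probe used. Genes dim in 1 group have a bound, not a fold.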

Other observations

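Further lists, of housekeeping, stress and pericyte genes, held no gene that passed. Of 38 respiratory chain genes limma called 0, with 1 at an unadjusted p under 0.05, and the median was 0.01. Of 36 cytosolic ribosomal protein genes 35 lay below 0 with a median of −0.17, against −0.08 over all genes. Limma called 0 of them, with 4 at an unadjusted p under 0.05. The list of unfolded protein and amino acid stress genes had 22 of 31 below 0, a median of −0.15 and 0 calls in limma, with 9 at an unadjusted p under 0.05. Markers of pericytes and smooth muscle had a median of 0.03 over 12 genes and 0 calls in limma, with 1 at an unadjusted p under 0.05.

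Adipocyte genes lay above 0 in 12 of 13 cases with a median of 1.38, at −2.11, 0.76, −0.72 and 0.21 on average in ALA plus X-ray tumours against −1.22, −1.44, −2.59 and −2.18 in X-ray tumours. Of 15 neutrophil genes 5 passed the background filter. S100a9 was well above background on all 8 arrays and differed by 2.25 ± 1.27 (adjusted p = 0.30), and the other 4 were well above background on 3 ALA plus X-ray arrays and on 0 or 1 X-ray arrays, so the filter favours their direction.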
